A study of Caenorhabditis elegans with 2 samples.

Results

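Regions of eGFP-tagged JUN-1 at transfer RNA (tRNA) genes were taken from ChIP-seq data (sequencing of DNA recovered with a chromatin protein) of Caenorhabditis elegans larvae. A region was included when its summit, the point of highest enrichment, lay inside or within 250 bp of a nuclear tRNA gene of the Ensembl annotation on build ce11. Of 20820 regions in the authors' pooled list, 362 met this rule, and they were nearest to 329 different tRNA genes. There were 38 regions within 250 bp of 2 or more tRNA genes.

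All chromatin came from whole L3 larvae of mixed sex of strain OP234, with genotype unc-119(ed3) III; wgIs234. The integrated transgene wgIs234 expresses JUN-1 fused to eGFP, and the labels give 2 biological replicates of this 1 group. There was therefore no second condition, and no test between conditions could be made. Whole larvae mix many cell types, the fusion comes from an added transgene. Control libraries that the labels mention were not analysed here.

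JUN-1 belongs to the bZIP transcription factors of the AP-1 class, which bind DNA as pairs and are studied at promoters of RNA polymerase II. tRNA genes are transcribed by RNA polymerase III, whose promoter lies within the gene as an A box and a B box. The assembly factor TFIIIC binds both boxes and places TFIIIB, which contains the TATA-binding protein and BRF, just upstream of the first base, where it recruits the polymerase. An isotype is the set of tRNAs that carry 1 amino acid. Every isotype but selenocysteine, which has 1 gene, has many gene copies in this species.

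The genes of 6 of the strongest regions, each of a different isotype, are shown because their lengths and box positions set the scale for the summit positions below. They were read from the RefSeq genome on ce11, 5′ to 3′ on the gene's own strand, with the A box (first) and the B box (second) in capitals.
T23F1.t1, Lys, chrV:15465086-15465158, + strand: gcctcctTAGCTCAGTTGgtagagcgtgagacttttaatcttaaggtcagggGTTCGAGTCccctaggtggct
F15G9.t1, Ala, chrX:9743589-9743660, + strand: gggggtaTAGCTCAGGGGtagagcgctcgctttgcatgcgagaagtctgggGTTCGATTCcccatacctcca
R11.t1, Tyr, chrX:16209769-16209852, - strand: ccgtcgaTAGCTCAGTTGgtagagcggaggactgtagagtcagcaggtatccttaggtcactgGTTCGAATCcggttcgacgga
C06G1.t1, His, chrX:16634830-16634901, - strand: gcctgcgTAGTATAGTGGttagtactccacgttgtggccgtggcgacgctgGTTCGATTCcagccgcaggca
C04A11.t1, Leu, chrX:13665555-13665673, + strand: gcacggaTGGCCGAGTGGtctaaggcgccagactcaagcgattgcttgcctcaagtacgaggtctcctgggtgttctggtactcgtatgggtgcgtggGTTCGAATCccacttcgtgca
F46G11.t2, Pro, chrX:5801211-5801282, - strand: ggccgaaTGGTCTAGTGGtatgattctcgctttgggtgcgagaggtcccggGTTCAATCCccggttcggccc

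The A box began at base 8 in all 6 of these genes. The B box began at base 52 in the Ala, His and Pro genes, at base 53 in the Lys gene and at base 64 in the Tyr gene. In C04A11.t1, whose 119 bp make it the longest of the 6, it began at base 99. F46G11.t2 holds the B box in the form GTTCAANNC, and the other 5 genes hold the form GTTCGANNC.

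Of 612 nuclear tRNA genes, 363, or 59.3% (95% exact interval 55.3 to 63.2%), had a region within 250 bp, and 249 had none. The share was 42.5% with regions in coding promoters left out, 35.7% over single-copy genes with regions at copied genes left out, and 17.8% with regions under the lowest signal value of the authors' reproducible list left out. A single region lay within 250 bp of 324 genes, 38 genes had 2 and 1 gene had 3. The same distance gave 179 of 475 genes (37.7%) for small nucleolar and small nuclear RNAs, which are other short noncoding RNA genes. None of the pooled regions lay on mitochondrial DNA, which holds a further 22 tRNA genes.

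The signal value is a score that the authors' peak calling gave each region. Its scale is not stated, so values are compared within a list and not between the pooled and the replicate lists. Regions at tRNA genes had a median signal value of 20.7 (95% interval 18.2 to 22.4), with quartiles of 13.2 and 33.8 and a range of 8.73 to 149. The median over all pooled regions was 12.9, and the highest value there was 474. The strongest 10% of the pooled list held 70 of the tRNA-gene regions, or 19.3%.

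Reproducible peaks are those of the authors' IDR list, which is made from how alike the replicates rank regions (irreproducible discovery rate). An IDR summit lay within 200 bp of 102 of the 362 regions, or 28.2% (95% exact interval 23.6 to 33.1%), against 13.7% of all pooled regions. Of the regions, 99 (27.3%) were themselves rows of the IDR list, against 13.2% of the pooled list. These 99 were the tRNA-gene regions at or above the lowest signal value of the IDR list, 31.4, so an IDR match and a high signal value are largely the same measure. The share was 41.3% (86 of 208) for regions at small nucleolar and small nuclear RNA genes, and 18.0% (1614 of 8987) for regions in promoters of protein-coding genes away from tRNA genes. Both sets of noncoding RNA regions thus had a higher share than the coding promoters, and the tRNA-gene regions lay between the other two sets. The intervals reflect counting error alone, over regions or genes, and read depth is unknown. Differences between sets of regions or genes, here and below, are descriptions with no test, because 1 group of 2 replicates gives no comparison over samples.

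The summits gathered on the tRNA genes themselves. Relative to the first base of the nearest tRNA gene on its own strand, the median summit lay 21 bp downstream, and the quartiles lay at −34 and 73 bp. Summits were inside the gene in 122 regions (33.7%), upstream of it in 148 (40.9%) and beyond its end in 92 (25.4%). The 4 bins of 50 bp that lie within 100 bp of the first base on either side held 47 to 86 pooled summits each, with a mean of 70. The 20 bins more than 500 bp away held 5 to 15, with a mean of 8.35. For summits with an IDR match the means were 24 and 1.25 per bin.

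**Figure D1:**
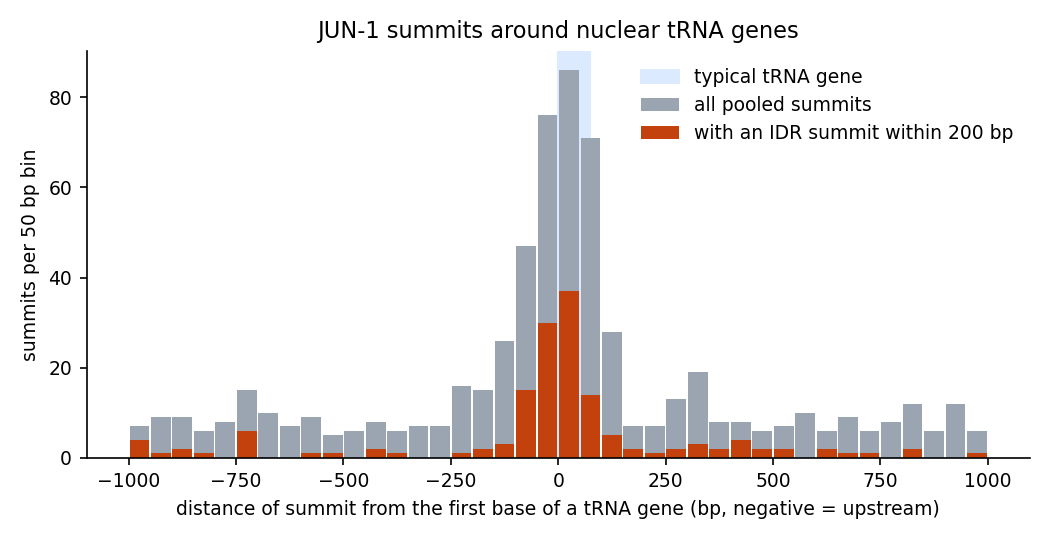
Pooled JUN-1 summits per 50 bp bin (vertical axis, number) against the distance from the first base of the nearest tRNA gene (horizontal axis, bp, negative values upstream), with the summits that have an IDR match in orange. The 4 bins around the first base hold a mean of 70 summits, and the bins more than 500 bp away a mean of 8.35.

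Regions with an IDR match lay closer to the start of the gene. Their summits had quartiles of −28 and 40.5 bp around a median of 17 bp, and 81 of 102 (79.4%) had positions between −50 and 100 bp of the first base. Among the 260 regions without a match, 152 (58.5%) fell there. The share with an IDR match was 37.7% for summits inside the gene, 28.4% for those upstream and 15.2% for those beyond the end. The median signal values of the 3 classes were 25.9, 18.96 and 15.8. Distances of the summit to the boxes were large against the distance between the boxes, with a median of 54 bp from the start of the A box and 61.5 bp from that of the B box (348 regions with each box).

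The letters around the summits were those of tRNA genes, and AP-1 sites were rare there as in the whole pooled list. Within 100 bp of the summit, 241 of the 362 windows (66.6%) held the B box letters GTTCGANNC or GTTCAANNC on either strand, against 5.12% of all pooled windows. An A box was present in 281 windows (77.6%) against 12.8%. It was searched as TRGYNNARNNG, where R is A or G, Y is C or T, and N is any base. As the rule placed the windows at tRNA genes, these shares follow from it. The AP-1 site, TGACTCA or its reverse complement TGAGTCA, was found in 6 windows (1.66%, 95% exact interval 0.611 to 3.57%), against 3.35% of all pooled windows and 2.88% of those at small nucleolar and small nuclear RNA genes. The related CRE site TGACGTCA was found in 1 window (0.276%, 0.00699 to 1.53%) against 1.41% and 1.44%. For both sites the interval holds the share of the pooled list.

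The GATA site TGATAA, recognised by intestinal and epidermal regulators among others, was present in 60 windows (16.6%, 95% exact interval 12.9 to 20.8%), against 26.3% of all pooled windows. At small nucleolar and small nuclear RNA genes the share was 15.4%, close to that at tRNA genes. The E-box CACGTG was found in 6 windows (1.66%, 0.611 to 3.57%) against 5.10% of pooled windows and 2.88% at the other noncoding genes. The repeat GAGAGAGA was found in 12 (3.31%, 1.72 to 5.72%) against 4.59% and 3.85%, and its interval holds the pooled share. The letters of a tRNA gene fill part of most windows, so the rule bears on these shares too. A region with the AP-1 site had an IDR match in 1 of 6 cases, and the others in 101 of 356 (28.4%). Matches were to these patterns with no mismatch, the A and B box patterns holding variable bases, and on both strands. A match is a description of the letters, not of a bound site.

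The tRNA genes without a region mostly had the same boxes. Here boxes were counted on the gene's own strand, the A box near its start and the B box near its end. The A box pattern was held by 592 of 612 genes (96.7%) and a B box pattern by 587 (95.9%). Among genes with a region 98.9% held the A box and 97.2% the B box, and among genes without one 93.6% and 94.0%. Of the 25 genes that matched neither B box pattern, 10 had a region. Met genes were among those that missed, with a match in 10 of 20. A miss of the letters does not show that a gene lacks the box.

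The strongest region lay by R04A9.t1, a Gln tRNA gene at chrX:410391-410462. Its pooled signal value was 149, with 58.2 in replicate 1 and 92.3 in replicate 2, and it ranked 87th in the pooled list. The summit was 148 bp upstream of the gene, in an intron of ZK1193.2 on the opposite strand and 300 bp from that gene's 5′ end. The region therefore also counts as one in a coding promoter, defined as the stretch that begins 1000 bp before the 5′ end of a protein-coding transcript and ends 500 bp after it.

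C28G1.t1, a Glu tRNA gene at chrX:8836113-8836184 in the 5′ UTR of C28G1.2, came next with a pooled signal value of 117. Its replicate values were 57.0 and 61.3. Its summit lay 48 bp upstream of the tRNA gene and 49 bp from the 5′ end of C28G1.2, and so also in a coding promoter. C53C7.t2, a Ser tRNA gene at chrX:13046366-13046447, followed with 111 and replicate values of 54.7 and 54.4. It lay between coding genes, with the nearest coding 5′ end 2054 bp from the summit. The summit lay 57 bp upstream of the tRNA gene.

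T23F1.t1, the Lys gene shown above and the strongest off the X chromosome, had a pooled signal value of 96.3, with 44.1 in replicate 1 and 51.7 in replicate 2. Its summit lay 26 bp beyond the gene and 493 bp from the 5′ end of pqn-71. F15G9.t1, the Ala gene, lies in an intron of him-4, which encodes the extracellular matrix protein hemicentin, and had a pooled value of 92.3 with replicate values of 37.8 and 52.2. The Tyr gene R11.t1 had 87.4, with 39.0 and 44.7 in the replicates. Relative to the nearest tRNA gene, the summits lay beyond the end for the first 2 regions and 56 bp upstream for R11.t1. Each of the first 2 summits lay between 2 tRNA genes, however. The other gene was T23F1.t2 (Pro, chrV:15465225-15465296, - strand) for the first. For the second it was F15G9.t2 (Ala, chrX:9743747-9743818, + strand), so that summit also lay upstream of a tRNA gene.

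The His gene C06G1.t1 had a pooled signal value of 87.3, with 45.6 in replicate 1 and 42.3 in replicate 2. Its summit was inside the gene, 9 bp past the first base and thus within the A box. The Leu gene C04A11.t1 had 84.2, with 42.3 and 40.2, and its summit lay 8 bp upstream. F46G11.t2, the Pro gene, had 68.4, with 40.3 and 34.5. In these 3 regions the value of replicate 1 was the higher one, which was the less common order among the regions matched in both replicates.

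The remaining regions among the 12 strongest had pooled signal values of 79.4 at the Arg gene F47G6.t1 in an intron of spe-15 on chromosome I, 77.4 at the Asn gene F41D9.t3 in an intron of sulp-3, 76.6 at the Gly gene M02F4.t1 and 70.7 at the Arg gene F13G11.t1 on chromosome IV. Of the 12, 9 lay on X. All 12 had an IDR match, as did every tRNA-gene region at or above the lowest signal value of the IDR list. The summit near F13G11.t1 lay 214 bp beyond the gene. The strongest regions of the other autosomes were at B0228.t1 (Gln, chromosome II, 55.8) and K11H3.t2 (Ser, chromosome III, 61.7).

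The weakest regions were those at F21C3.t1 (Lys), with a pooled signal value of 8.73, Y54G2A.t1 (Asp), with 8.78, and R11.t3 (Tyr), with 8.80. R11.t3 lies in the same run of 4 Tyr genes as R11.t1, whose value was 87.4. The 2 regions farthest from their gene inside the limit lay 250 bp from F52C9.t1, with a value of 13.8, and 244 bp from B0285.t1, with 14.5. Just beyond the limit were a region 251 bp from Y73F8A.t3, with 11.2, and one 252 bp from the Arg gene C18A11.t2, with 304. The deposited interval of the last carries a second summit, 47 bp from the same tRNA gene, which was included with its own value of 60.6. The nearest coding 5′ end to that second summit was that of xol-1, the sex-determination switch gene, at 4675 bp.

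The X chromosome held 169 of the 362 regions, or 46.7% (95% exact interval 41.5 to 52.0%). It also held 276 of the 612 tRNA genes (45.1%), against 19.7% of all pooled regions. Among tRNA genes on X, 177 (64.1%, 58.2 to 69.8%) had a region, and among those on autosomes 186 of 336 (55.4%, 49.9 to 60.8%). Chromosome I had the lowest share, 29 of 66 genes (43.9%), and chromosome II the highest, 39 of 57 (68.4%). The IDR list matched 55 of 169 regions on X (32.5%) and 47 of 193 on autosomes (24.4%), against 14.6% and 13.5% of all pooled regions there. Median signal values were alike at 20.8 on X and 20.1 on autosomes, while the upper quartile was 36.6 on X and 29.97 on autosomes.

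**Figure D2:**
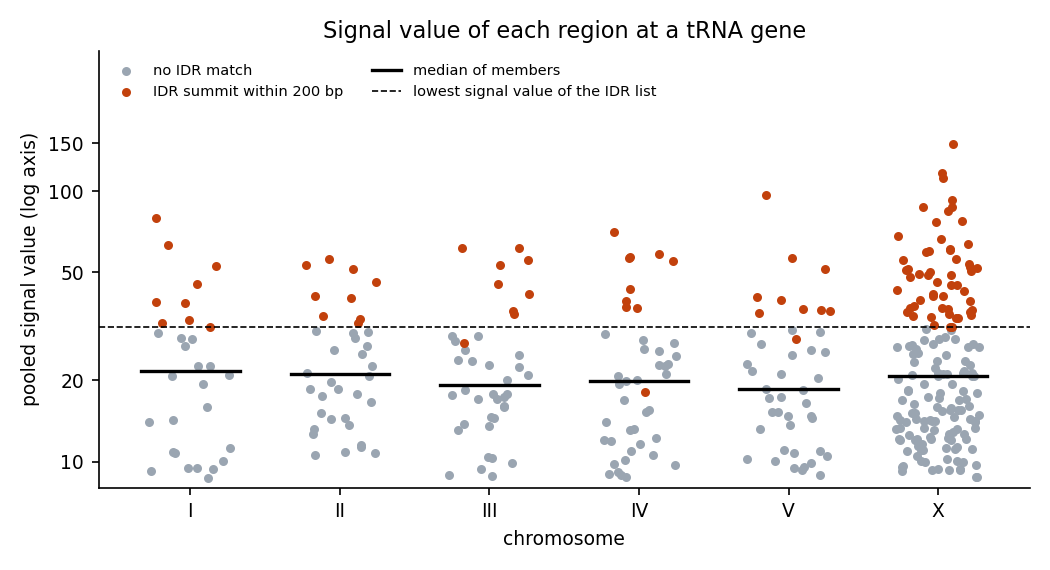
Pooled signal value of each of the 362 regions (vertical axis, log scale, authors' score with no stated unit) by chromosome, with a bar at the median, IDR matches in orange and a dashed line at the lowest signal value of the IDR list, 31.4. Chromosome medians lie close together, and the highest values, up to 149, are on X.

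A larger share of the tRNA genes standing apart than of those in runs had a region with an IDR match. A run was formed by tRNA genes with gaps under 2000 bp. Of the 341 genes with no such neighbour, 214 (62.8%) had a region and 75 (22.0%) had one with an IDR match. In runs of 2, the shares were 93 of 172 (54.1%) and 27 (15.7%). In runs of 3 or more, 56 of 99 genes (56.6%) had a region, but 7 (7.07%) had one with an IDR match. On X alone the IDR shares were 30.9% of 123 genes standing apart, 21.4% of 84 in runs of 2 and 8.70% of 69 in longer runs. On autosomes they were 17.0% of 218, 10.2% of 88 and 3.33% of 30, the last being 1 gene.

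The run with the most regions was K01A12.t1 to K01A12.t3 at chrX:8623603-8624532, 5 genes for Arg and Cys within 930 bp. All 5 genes had a region within 250 bp, from 4 regions with signal values of 10.03 to 16.9, and none had an IDR match. The longest run, F22F1.t9 to F22F1.t7, held 8 genes and 3 regions, with values of 15.4 to 23.3. R04E5.t5 to R04E5.t2, with 5 genes for Cys and Gly, held 3 regions of 11.7 to 21.1. The highest value in any run of 3 or more was the 87.4 of R11.t1.

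Many tRNA genes are exact copies of each other, which bears on where reads can be placed. The 612 genes had 200 different sequences, and the largest set of identical genes had 29. Of the 143 genes whose sequence occurs once, 57 (39.9%, 95% exact interval 31.8 to 48.4%) had a region, against 306 of 469 (65.2%, 60.7 to 69.6%) with 2 or more copies. On X the shares were 40.4% and 70.3%, and on autosomes 39.5% and 60.8%. The shares with an IDR match were 10.5% and 20.04%. Genes that occur once also held the boxes in smaller shares, with an A box in 87.4% against 99.6% and a B box in 90.9% against 97.4%, and the 5 genes with no annotated isotype, all without a region, had a median of 89.4% unique words.

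Uniqueness was measured as the share of 31-base words that occur once in the genome. Across tRNA genes the median share was 0% within the gene and 100% in its flanks. Within 100 bp of the summits the median was 74.0% for the tRNA-gene regions and 100% for all pooled regions. It was 68.4% where the summit was inside the gene, 89.2% upstream and 82.2% downstream. How reads with several placements were counted is not given in the sources used here, and the part of copy number in these results was not tested.

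**Figure D3:**
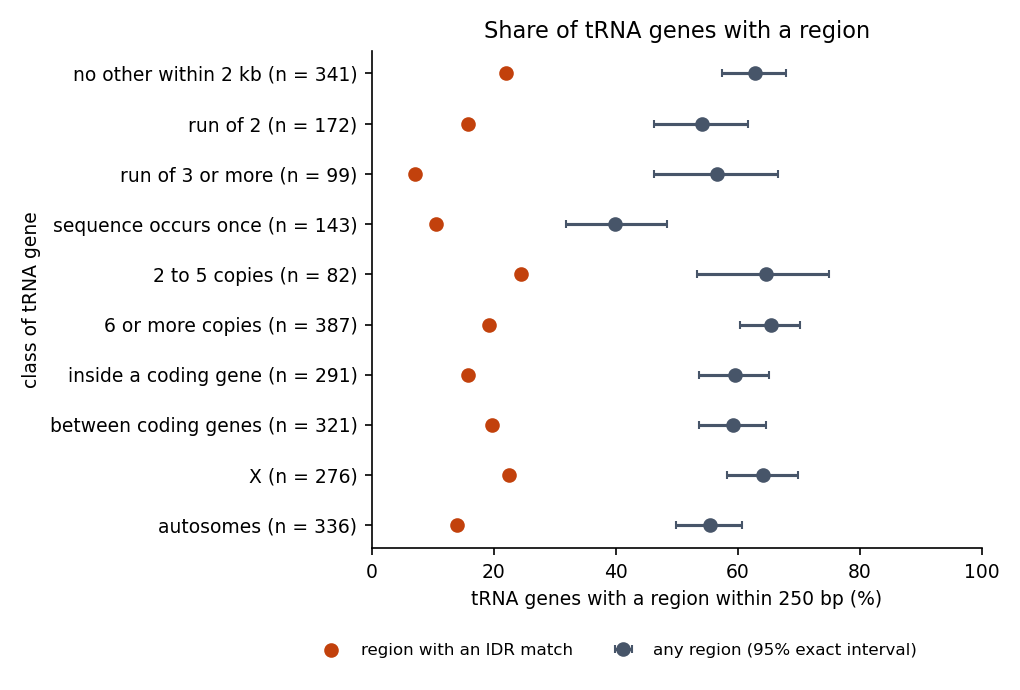
Share of nuclear tRNA genes with a region within 250 bp (horizontal axis, percent) for classes of gene (vertical axis, with the number of genes), with 95% exact intervals, and in orange the share with a region that has an IDR match. Genes in runs of 3 or more have an IDR share of 7.07% against 22.0% for genes standing apart, and genes whose sequence occurs once have a region in 39.9% of cases.

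Regions were found at genes of all 21 annotated isotypes. The share of genes with a region ran from 8 of 19 Tyr genes (42.1%) to 12 of 13 Cys genes (92.3%), apart from the single selenocysteine gene, K11H12.t1, which had one. In every isotype but Tyr, genes with a region were at least as many as genes without one. With 12 to 55 genes for each isotype but selenocysteine, the exact intervals were wide, from 20.3 to 66.5% for Tyr and from 64.0 to 99.8% for Cys. Of the 12 Cys genes with a region, 2 had one with an IDR match.

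The isotypes with the most genes near an IDR match were Arg, with 12 of 44 genes (27.3%), and Pro, with 12 of 42 (28.6%). Over all nuclear tRNA genes the share was 109 of 612 (17.8%). A region within 250 bp of several genes counts for each of them here. Counted as regions by nearest gene, 13 of 30 Arg regions and 7 of 16 Pro regions had an IDR match. The Pro gene T23F1.t2, for example, counts through the region nearest to the Lys gene T23F1.t1. Phe had none among 14 genes, although 8 had a region. Its strongest region, at T28B4.t1, had a signal value of 31.0, just under the lowest value of the IDR list. Met, the amino acid that starts translation, had 1 of 20 genes near an IDR match, with its strongest region at E01H11.t1 (39.4). K11H12.t1, which serves the readthrough of a stop codon, had a value of 22.7, with 6.91 and 13.7 in the replicates.

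Of the isotypes not yet described, the strongest region lay on X for Val, at R04D3.t2 (66.4), for Asp, at F52H2.t1 in an intron of the amino acid transporter gene aat-3 (60.9), and for Thr, at R01H5.t1 (52.6). It lay on chromosome V for Ile, at F57F5.t1 (56.4), on chromosome I for Cys, at C37A2.t1 (39.0), and on chromosome III for Trp. The Trp gene was sup-5, known for alleles that read through amber stop codons, with a pooled signal value of 53.4 and replicate values of 17.4 and 32.2. Its summit lay 11 bp upstream of the first base.

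**Figure D4:**
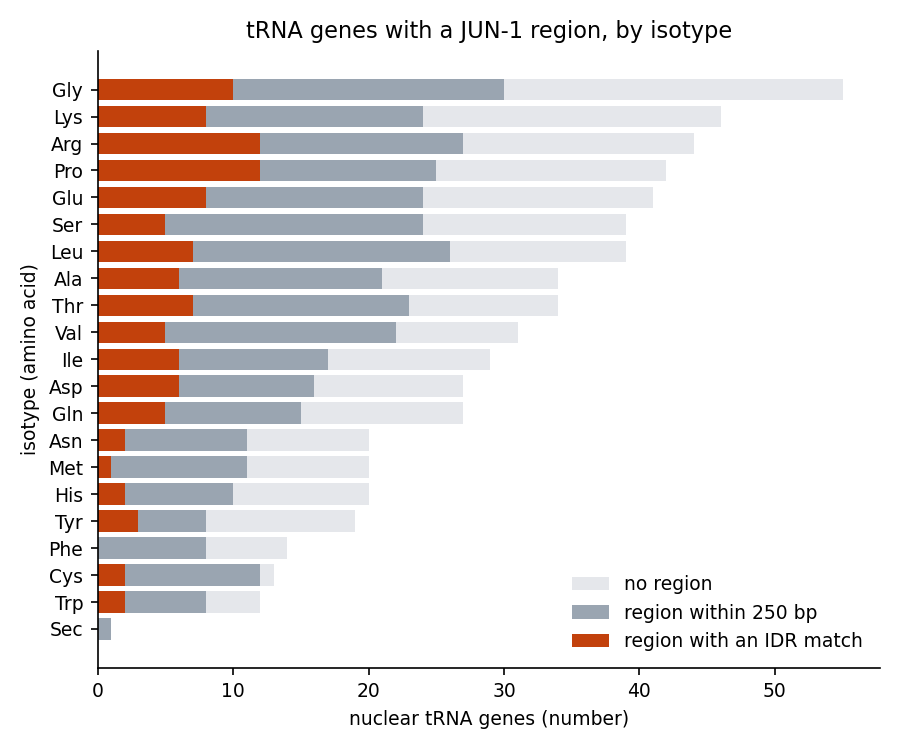
Number of nuclear tRNA genes (horizontal axis) by isotype (vertical axis, amino acid), split into genes without a region, genes with a region within 250 bp and, in orange, genes with a region that has an IDR match. Phe is without an IDR match among 14 genes, and Arg and Pro have 12 each, against 109 of all 612 nuclear tRNA genes (17.8%). A region near several genes is counted for each of them.

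The tRNA genes themselves often lie within protein-coding genes. Of the 612, 291 (47.5%) lay in a coding host gene, and 173 of these (59.5%) had a region, against 190 of 321 (59.2%) between coding genes. An IDR match was present at 15.8% and 19.6% of the genes. Hosts on the same strand as the tRNA gene had a region in 94 of 168 cases (56.0%) and hosts on the opposite strand in 79 of 123 (64.2%), with wide exact intervals of 48.1 to 63.6% and 55.1 to 72.7%. With protein-coding genes alone considered, the summits lay between them in 181 regions and in introns in 154. They lay in coding exons in 20, in 3′ UTRs in 5 and in 5′ UTRs in 2.

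Coding promoters were the minority. Of the 362 summits, 101 (27.9%, 95% exact interval 23.3 to 32.8%) fell in a coding promoter, against 43.7% of all pooled summits. An IDR match was present for 27.7% of the regions in a coding promoter and for 28.4% of the others. Over all pooled regions these shares were 18.1% and 10.3%. The median signal values of tRNA-gene regions were 19.8 in coding promoters and 20.7 outside, and over all pooled regions 14.5 and 12.1. The higher values in promoters seen over the whole list were thus not seen at tRNA genes. Summits of the 261 regions outside coding promoters had a median position of 18 bp past the first base of the tRNA gene, close to the 21 bp of all.

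Replicates differed by more at single tRNA genes than in the medians. A summit within 200 bp was found in the lists of both replicates for 255 regions (70.4%), against 50.8% of all pooled regions. It was found in replicate 1 alone for 51 and in replicate 2 alone for 55, and 1 region, at K01A12.t1, had a match in neither. The pooled list was made from both replicates, so presence in them is partly built in. The median signal value was 10.6 over the 306 regions matched in replicate 1 and 13.6 over the 310 matched in replicate 2. For all pooled regions the medians were 7.56 over 14340 and 9.29 over 16364, so each median has its own set of regions.

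At tRNA genes the value of replicate 2 divided by that of replicate 1 had a median of 1.30, and it was 1.30 over all pooled regions, so the higher values of replicate 2 were those of the whole list. The ratio was above 1 in 177 of 255 regions, above 2 in 48 and below 0.5 in 10. Across the 255 regions, which come from the same 2 libraries, the replicate values had a Spearman correlation of 0.60 and a Pearson correlation of log10 values of 0.61. The same figures over all pooled regions were 0.63 and 0.72.

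Some strong regions rested mainly on replicate 2. F57F5.t1, the strongest Ile region, had 7.62 in replicate 1 and 47.3 in replicate 2. T14F9.t1 (Asp) had 6.06 at the nearest summit of replicate 1, 8.12 at the strongest within 200 bp, and 34.0 in replicate 2. B0350.t1 (Lys) had 12.9 and 51.3. M02F4.t1 (Gly) had 6.44 at the nearest summit of replicate 1 and 49.7 in replicate 2, but a second summit of replicate 1 within 200 bp had 32.99. In the other direction, F56C3.t1 (Gly) had 29.6 and 14.6, with an IDR match, and ZK783.t1 (Glu) had 15.9 and 4.62 without one.

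**Figure D5:**
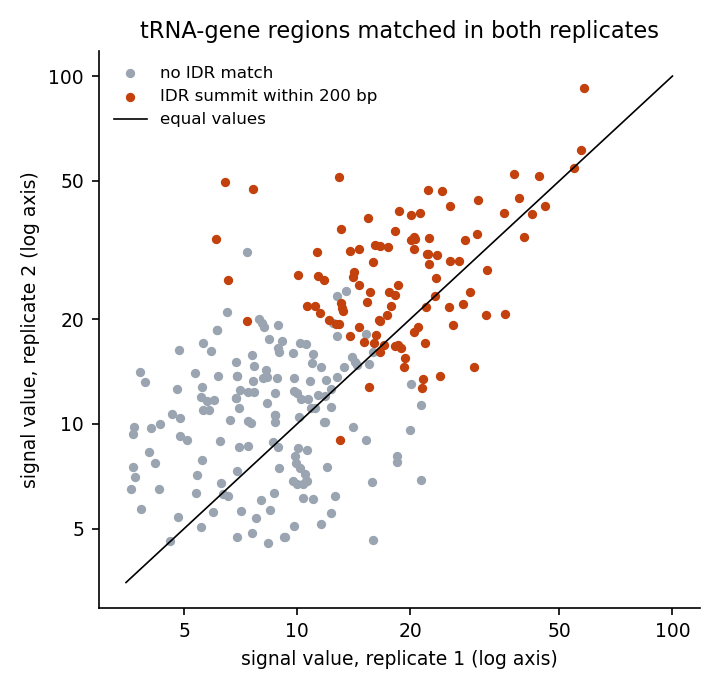
Signal value in replicate 2 (vertical axis) against replicate 1 (horizontal axis), both log scales and authors' scores, for the 255 regions matched in both lists, with IDR matches in orange and a line of equal values. The points scatter widely, and 177 of 255 lie above the line.

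Genes whose products make or process tRNAs had IDR summits in their promoters at a share near that of all coding genes. Of 33 annotated genes for RNA polymerase III and its factors, tRNA processing and tRNA modification, 4 (12.1%) had an IDR summit in their promoter, against 9.5% of all 19973 protein-coding genes. They were rpac-19, a subunit shared by RNA polymerases I and III, with a signal value of 41.5, and rpb-12, a subunit shared by all 3 nuclear polymerases, with 32.5. The others were rtcb-1, the tRNA ligase, with 31.5, and trm-1, a tRNA methyltransferase gene, with 39.98. The rtcb-1 value was just above the lowest of the IDR list, and that summit lay 748 bp from the gene's 5′ end. The polymerase III subunits rpc-1, rpc-2, rpc-11 and rpc-25, the TFIIIB genes tbp-1 and brf-1, and mafr-1, the worm counterpart of the repressor MAF1, had no IDR summit in their promoters. The listed symbol cca-1 names a calcium channel gene in this species, and without it the count was 4 of 32.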

How the data were processed

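Peak lists in narrowPeak format on ce11 were used: 1 for each of 2 replicates (27417 and 28475 regions), a pooled list (20820) and an IDR list (2738). Per the labels' text files, the authors derived each replicate list from its alignments and a control, the pooled list from both replicates, and the IDR list from these. The deposited signal value is a score on an unstated scale, and the deposited −log10 of a q-value was not used for ranking. The sources used here name no peak caller, aligner or versions for these lists, and depth is unknown.

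Gene positions came from Ensembl release 115, isotypes (607 of 612 genes) from the RefSeq annotation by WormBase ID, and sequence from the RefSeq genome of the same build. No gene sequence of chromosome I, or with an identical copy there, was printed. Lists were matched by the nearest summit within 200 bp. Intervals of shares are 95% Clopper-Pearson, and those of medians come from order statistics. Motifs were matches to the stated patterns, with no mismatch, within 100 bp of the summit. The B box was first searched as GTTCGANNC and widened to GTTCAANNC after its misses by isotype were seen.

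Named regions are the 12 strongest, the strongest per chromosome and isotype, the 3 weakest, those nearest the distance limit and the runs with most regions. Replicate extremes and genes with no IDR summit were chosen after their values were seen. Members and lists were chosen with earlier results of these data known. Of 34 symbols listed for tRNA transcription and processing, trpt-1 had no match in the annotation. The matching steps were tested on data with known answers and recovered 200 of 200 planted regions, 106 of 106 list matches and 500 of 500 B boxes. The planted regions lay at tRNA genes with no close neighbour, and the planted B boxes had the form GTTCGANNC alone. Recovery in runs of tRNA genes, of the form GTTCAANNC and of the A box was not tested. Alternatives varied distances, lists, windows and gene copies. Scripts ran under Python 3.11.15 with pandas 2.3.3, numpy 2.4.6 and scipy 1.17.1, and figures under matplotlib 3.10.9.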

Additional observations from a re-analysis of the deposited data

How the results depend on the processing

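The number of regions stayed within 1.5 times of 362 except where tRNA genes with identical copies were left out (56) or where pooled regions under the lowest IDR signal value were dropped (99). With copies left out, 35.7% of the 143 single-copy genes had a region nearest to them or to another such gene, the median signal value was 18.1, 28.6% of summits were inside a gene, 35.7% lay on X, 33.9% in a coding promoter, 51.8% of windows held a B box, and the replicate ratio was 1.602. With the stricter signal limit, by construction, 100% had an IDR match and a match in both replicates. The median was then 45.5, 17.8% of genes had a region, 46.5% of summits were inside a gene, 55.6% were on X, and 79.8% of windows held a B box. Against the IDR peaks at or above their median signal value, 13.3% had a match.

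At 100 bp and 500 bp from the tRNA gene, 50.2% and 66.5% of genes had a region, and 80.7% and 60.6% of windows held a B box; at 100 bp, the median signal value was 22.6 and 41.2% of summits were inside a gene. With any overlap of region and gene, 71.6% of windows held a B box. Without coding promoters, 42.5% of genes had a region. Matching lists at 100 bp, at 500 bp or by overlap put 54.7%, 81.2% and 78.7% in both replicates. Promoters from 500 bp upstream to 250 bp downstream held 16.9% of summits, and from 1500 bp upstream to 500 bp downstream 37.8%. B box windows of 50 and 150 bp gave 40.6% and 80.4%, and GTTCGANNC alone, tried first, 50.3%. Leaving out a replicate gave medians of 9.20 to 11.95 on that list's own scale, 26.9 to 27.1% of summits inside a gene and 60.6 to 60.9% of windows with a B box. Counting summits from 0, added after seeing the data, left 362 regions. Adding tRNA pseudogenes was not run because the annotation has no such biotype. No paired analysis was possible because there is 1 group. Causes of these shifts were not tested unless given by construction.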
